A study of Mus musculus with 64 samples.

Results

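Arc, Npas4, Bdnf, Ntrk2, Nptx2, Inhba, Ptgs2, Vgf and Scg2 are 9 genes best known in neurons for being induced by synaptic activity or for acting in the plasticity that follows it. They were chosen by name, and their 27 transcripts were read from tables of 112714 transcripts and 46785 genes in 64 mouse brain libraries. All 9 passed the filter on low values, and all 27 transcripts carried a valid estimate in every library. Adult male C57BL/6N mice, 8 to 10 weeks old, received 1 intraperitoneal injection and were killed 2 h later, and the nucleus accumbens (NAc) and prefrontal cortex (PFCx) were dissected. The injections were haloperidol at 1 mg/kg or risperidone at 0.5 mg/kg (antipsychotics, dissolved in saline with a drop of HCl), methamphetamine at 2 mg/kg (a psychostimulant), venlafaxine at 16 mg/kg or mianserin at 20 mg/kg (antidepressants), ketamine at 20 mg/kg (a dissociative anaesthetic), or saline. Each drug had 4 libraries per tissue and saline had 8 per tissue, in label sets I and II of 4 each. The labels give no link between the NAc and PFCx libraries of one animal and do not say what else distinguished the saline sets, so p-values describe the spread between libraries as deposited.

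An immediate early gene is switched on within minutes of neuronal firing, when calcium entry activates kinases that act on CREB and serum response factor at its promoter. Npas4 is a transcription factor of this kind and Arc encodes a synaptic protein that takes part in AMPA receptor removal. Bdnf, a secreted neurotrophin, acts through the receptor encoded by Ntrk2 (TrkB), while Nptx2 clusters AMPA receptors, Inhba encodes the subunit of activin A, Ptgs2 encodes the inducible cyclooxygenase COX-2, and Vgf and Scg2 encode proteins of dense core vesicles that are cut into peptides. In the striatum, which includes the NAc, dopamine D2 receptor blockers such as haloperidol and stimulants such as methamphetamine are classic inducers of immediate early genes.

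Promoter sequence is shown for the members whose 250 bases before the start held a match to the cAMP response element (CRE), the sequence bound by CREB. The RefSeq promoter table (GRCm38.p6) matched 6 of the 9 members with 12 windows, and had no entry matched for Arc, Nptx2 and Vgf. Motifs were searched on both strands, and the core TGACG also lies inside the full site TGACGTCA. The full site was found in 1.56% and the core in 17.9% of the 32536 distinct windows counted, which leave out a chromosome that holds no member. Capitals mark these matches in the following sequences, each written 5′ to 3′ on the strand of its gene.
Scg2, chr1:79440076-79440105, minus strand: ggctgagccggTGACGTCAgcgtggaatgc
Npas4, chr19:4990129-4990158, minus strand: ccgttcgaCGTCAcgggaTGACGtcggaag
Bdnf, chr2:109692186-109692435, plus strand: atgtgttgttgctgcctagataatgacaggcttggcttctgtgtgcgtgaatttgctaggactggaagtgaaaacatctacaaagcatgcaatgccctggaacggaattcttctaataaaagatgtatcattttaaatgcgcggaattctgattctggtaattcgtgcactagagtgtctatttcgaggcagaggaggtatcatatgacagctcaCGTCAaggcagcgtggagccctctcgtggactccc

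The Scg2 stretch held the full site, 68 bases before the RefSeq start and inside the first exon of the longer transcript in the deposited tables. The Npas4 stretch held 2 cores in opposite orientation, 179 and 169 bases before the RefSeq start, which is also the start in the deposited tables, and inside the first exon of ENSMUST00000056129 as the GENCODE annotation draws it (start at 4990316). The Bdnf window held 1 core on the opposite strand, 35 bases before the start of ENSMUST00000111050, which was the Bdnf transcript with the highest mean level in both tissues. Another Bdnf window, which ends at the start of ENSMUST00000111046, held 1 AP-1 site (TGANTCA, present in 6.73% of windows) 152 bases before it. Inhba had 1 match to TATAAA (12.3% of windows), 91 bases before its start, and a CArG box, the serum response factor site, was found in none of the members' windows and in 1.48% of the windows counted. The windows of Ptgs2 and Ntrk2 held none of the motifs searched. These matches describe letters only, and no binding was measured.

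Levels are in FPKM, a measure of fragments scaled to transcript length and to the size of the library, summed over the transcripts of a gene. The tables held no read counts, so depth is known only as the bases implied by coverage and transcript length, from 1.52 to 3.26 gigabases per library. NAc libraries fell into 2 sets by their number of transcripts above 0. In sample set I, made up of haloperidol, methamphetamine, risperidone and the set I saline, 85287 to 87827 transcripts were above 0, and in sample set II, made up of ketamine, mianserin, venlafaxine and the set II saline, 107099 to 110556. The 75th percentile of gene FPKM above 0 was 4.38 to 4.94 in the former and 2.03 to 2.35 in the latter. The PFCx libraries, with 108556 to 110852 transcripts above 0, did not divide in this way, and the same drugs were kept together there. Drug and sample set cannot be told apart except through the saline libraries of the same set, so calls for single drugs are given against all 8 saline libraries and against the 4 of the own set, in a fit that keeps all 32 libraries of the tissue. The summed FPKM of 6 medium spiny neuron markers was 232 to 411 in the NAc and 15.3 to 52.6 in the PFCx, and that of 5 cortical projection neuron markers was 24.6 to 82.0 and 156 to 224. The cortical sum in the NAc was 50.02 to 68.4 in saline set I, 24.6 to 45.5 in saline set II, 61.1 to 82.0 after haloperidol, 38.3 to 73.7 after methamphetamine, 41.9 to 65.2 after risperidone, 47.9 to 73.5 after ketamine, 33.0 to 48.5 after mianserin and 25.9 to 46.1 after venlafaxine. The median difference of the 5 markers was 0.26 log2 units for both haloperidol and ketamine and -0.24 for venlafaxine, and the part of these markers in the NAc results was not tested. In tissue RNA, a lower level of a gene from fewer cells of a type cannot be told from less RNA per cell.

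Differences from saline were tested with limma on log2(FPKM + 1), a scale that understates the fold change of low genes, and a call needed a Benjamini-Hochberg adjusted p under 0.05 over the 37034 genes tested. In the NAc, haloperidol raised 6 of the 9 members (Arc, Ntrk2, Nptx2, Inhba, Vgf and Scg2), where 0.721% of all genes were called. Methamphetamine raised Arc and Inhba (0.194% of genes called) and risperidone raised Arc (0.729%). Venlafaxine lowered Arc and Vgf (1.83%), and limma called no member for mianserin (1.84%) or ketamine (1.97%), for which 3 and 2 members had an unadjusted p under 0.05. In the PFCx, haloperidol (0.162%) and methamphetamine (0.351%) each raised Arc and Bdnf, and risperidone (0.51%) and mianserin (0.667%) each raised Arc. No member was called by limma in the PFCx for venlafaxine (0.0054%) or ketamine (0.0162%), for which 2 and 1 members had an unadjusted p under 0.05. The median difference over the 9 members was highest for haloperidol in both tissues (0.44 and 0.30 log2 units) and lowest for venlafaxine (-0.19 and -0.17), against medians over all genes of -0.05 and -0.0041 for haloperidol and 0.04 and -0.02 for venlafaxine. Against the saline of the own sample set, the NAc had 8 calls, where 0.0081% to 0.967% of all genes were called for a drug. These 8 include Ntrk2 after ketamine, which was not called against all saline (limma adjusted p of 0.0158 and 0.377). The PFCx had 4 calls, all 4 of them Arc, where 0.0216% to 2.01% of all genes were called for a drug.

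**Figure D1:**
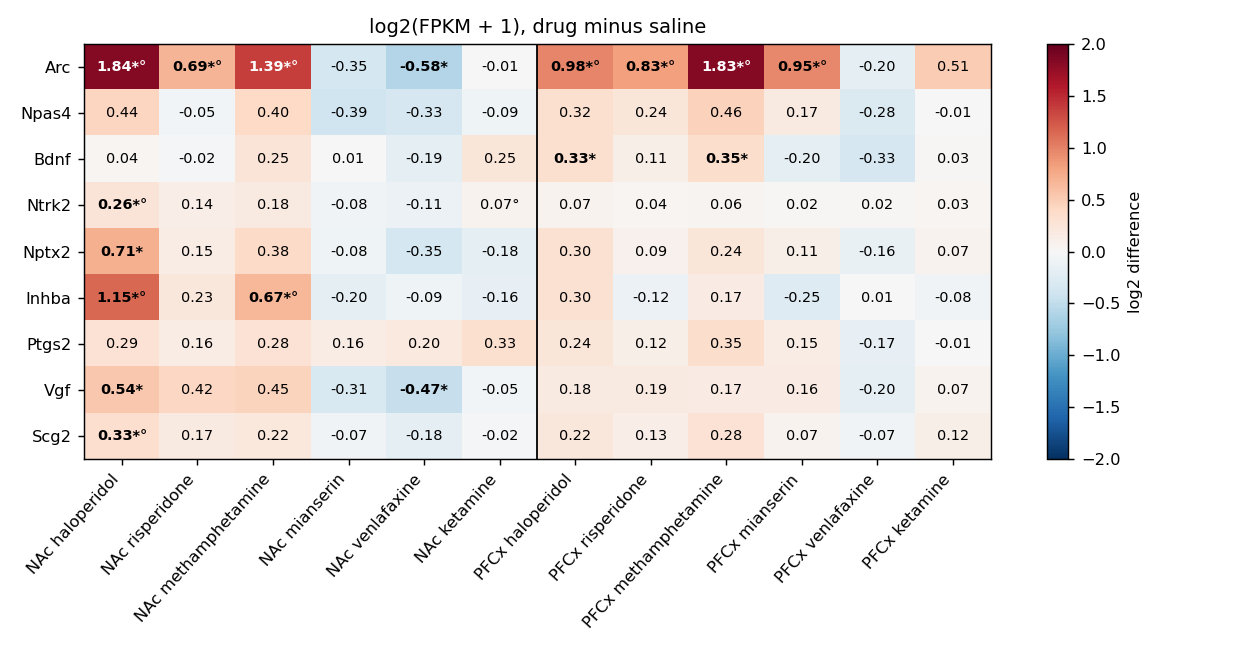
Difference from saline in log2(FPKM + 1) for the 9 genes (rows) and each drug in each tissue (columns), with red for higher and blue for lower. An asterisk marks a limma adjusted p under 0.05 against all 8 saline libraries and a ring the same against the 4 of the own sample set: Arc carries both marks in 7 of the 12 columns, while the Bdnf asterisks in PFCx and the Nptx2 and Vgf asterisks in NAc stand without a ring, and the asterisks of Ntrk2 and Scg2 for NAc haloperidol rest on values that turn negative under 75th percentile scaling with all saline libraries. With that scaling and own-set saline, the Scg2 call held and the Ntrk2 call was lost.

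Arc (ENSMUSG00000022602, mm10 chromosome 15, 74669083 to 74672570) gave the largest response among the 9 genes. In the NAc its 8 saline libraries measured 7.49, 6.44, 7.32 and 7.50 FPKM in set I and 6.68, 5.25, 5.12 and 5.81 FPKM in set II (6.45 ± 0.974, SD, n = 8). After haloperidol the 4 libraries measured 26.6, 23.4, 24.2 and 28.2 FPKM (25.6 ± 2.201, SD, n = 4). Every haloperidol library lay above every saline library, a 3.97-fold difference of means and 1.84 log2 units (SE 0.11, limma adjusted p = 1.09e-11). Methamphetamine gave 21.9, 17.5, 15.3 and 19.3 FPKM, again without overlap with saline (2.87-fold, 1.39 log2 units, adjusted p = 1.11e-08). Risperidone gave 13.4, 10.6, 10.5 and 9.39 FPKM, all above saline but all below every haloperidol and methamphetamine library (1.70-fold, 0.69 log2 units, adjusted p = 0.00104). Against set I saline the differences were 1.70, 1.24 and 0.54 log2 units for haloperidol, methamphetamine and risperidone, with adjusted p of 5.01e-10, 8.67e-07 and 0.0429. The risperidone call was lost when the set II saline libraries were left out of the fit (0.54, adjusted p = 0.0606) and under 75th percentile scaling with all saline (0.22, adjusted p = 0.239) or own-set saline (0.53, adjusted p = 0.111).

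None of the 3 sample set II drugs was called as raising Arc in the NAc in the reported fit. Venlafaxine gave 3.99, 3.59, 3.38 and 4.94 FPKM, all below every saline library of both sets (0.617-fold, -0.58 log2 units, limma adjusted p = 0.0188), but the call was lost against set II saline (-0.44, adjusted p = 0.536) and without venlafaxine replicate 3 (adjusted p = 0.106). Mianserin gave 5.82, 5.15, 3.99 and 4.48 FPKM, overlapping saline (-0.35 log2 units, adjusted p = 0.0855). Ketamine gave 7.58, 5.84, 6.44 and 5.71 FPKM, 1 library of which lay just above the saline range, and the 95% interval of its difference ran from -0.23 to 0.22 log2 units. With 75th percentile scaling and all saline libraries, ketamine was called higher (0.41 log2 units, limma adjusted p = 0.0452), where 22.4% of all genes were called.

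**Figure D2:**
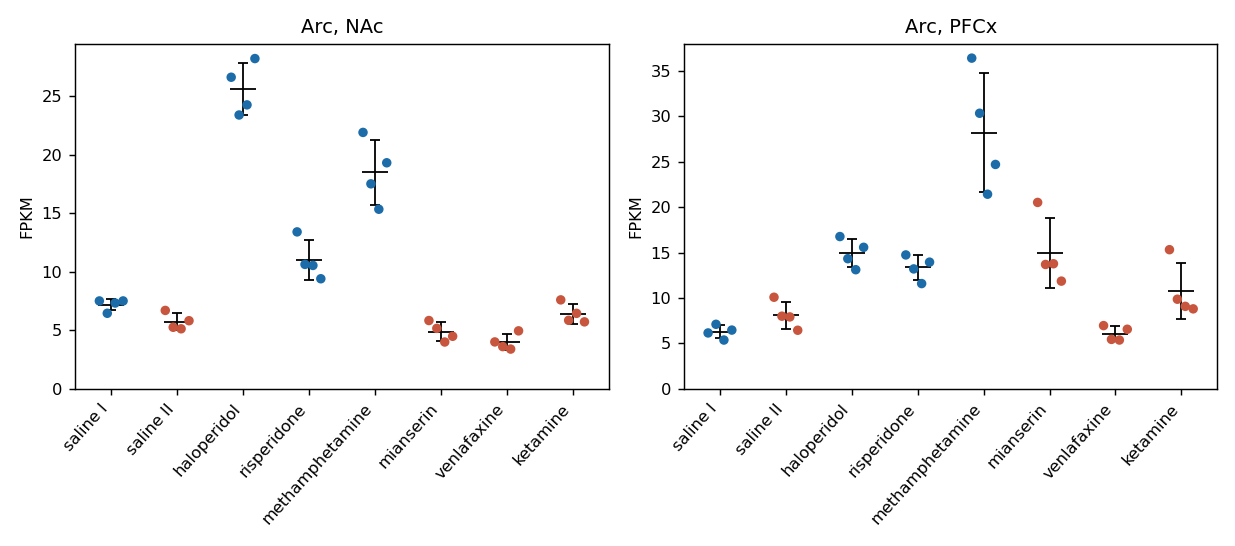
Arc FPKM in each library of the NAc (left) and PFCx (right) by treatment, with points in blue for sample set I and red for sample set II, and black bars for the mean ± SD (4 libraries a group). In the NAc the haloperidol and methamphetamine libraries lie between 15.3 and 28.2 FPKM, above every other group, whereas in the PFCx methamphetamine is highest at 21.4 to 36.4 FPKM and mianserin, at 11.9 to 20.5 FPKM, also lies above saline.

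In the PFCx, the order of the drugs on Arc was different. Saline measured 6.14, 7.10, 5.36 and 6.46 FPKM in set I and 10.1, 7.99, 7.91 and 6.44 FPKM in set II (7.18 ± 1.47, SD, n = 8). Methamphetamine gave 36.4, 30.4, 21.4 and 24.7 FPKM, 3.93-fold above saline (1.83 log2 units, SE 0.15, limma adjusted p = 4.56e-08). No methamphetamine library overlapped saline, and the highest of them was the highest Arc value of all 64 libraries. Haloperidol gave 16.8, 14.3, 13.1 and 15.6 FPKM (2.08-fold, 0.98 log2 units, adjusted p = 0.00359), risperidone 14.7, 13.2, 11.6 and 13.9 FPKM (1.86-fold, 0.83 log2 units, adjusted p = 0.00459) and mianserin 20.5, 13.7, 13.8 and 11.9 FPKM (2.08-fold, 0.95 log2 units, adjusted p = 0.000601). Those 3 groups overlapped one another, and each lay above all saline libraries. Ketamine gave 15.3, 9.86, 9.07 and 8.80 FPKM, where only replicate 1 exceeded the saline range (0.51 log2 units, adjusted p = 0.367). Venlafaxine gave 6.95, 5.43, 5.36 and 6.55 FPKM (95% interval of the difference -0.50 to 0.11 log2 units). All 4 PFCx calls held against the saline of the own set (adjusted p of 0.00552, 0.00521, 8.81e-08 and 0.00821 for haloperidol, risperidone, methamphetamine and mianserin). Arc has 2 transcripts in the tables, of 3055 and 3054 bases, so the split between them is uncertain and only their sum is used.

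Npas4 (ENSMUSG00000045903, chromosome 19, 4984355 to 4989971), measured by 1 transcript, measured 0.944 to 3.72 FPKM over all libraries and was called for no drug in either tissue. In the NAc, saline measured 2.72, 1.35, 2.00 and 1.70 FPKM in set I and 2.38, 1.61, 1.63 and 1.82 FPKM in set II. Haloperidol gave 2.35, 2.76, 3.21 and 3.31 FPKM (0.44 log2 units, limma adjusted p = 0.0795) and mianserin 1.33, 1.41, 1.01 and 1.04 FPKM (-0.39 log2 units, adjusted p = 0.0734). In each of these groups 1 library lay inside the saline range. The mianserin libraries all lay below set II saline but were not called against it (-0.38 log2 units, limma adjusted p = 0.407). In the NAc the ratio of coverage to FPKM for Npas4, relative to its usual value, was 0.692 to 0.913 in sample set II and 0.921 to 1.03 in sample set I. The haloperidol difference passed when only genes with a mean FPKM of at least 1 were tested (adjusted p = 0.0473). Methamphetamine gave 3.36, 2.46, 2.63 and 2.73 FPKM, and 2 of these libraries lay inside the saline range (0.40 log2 units, adjusted p = 0.21). In the PFCx, methamphetamine gave 3.62, 3.72, 2.80 and 3.23 FPKM beside 1.44 to 2.90 FPKM in saline (0.46 log2 units, adjusted p = 0.121), with 1 library inside the saline range. All tissue was taken at 2 h, so earlier levels of this transcript were not measured.

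Inhba (ENSMUSG00000041324, chromosome 13, 16011851 to 16027211) was the second strongest responder in the NAc. Saline measured 2.00, 1.68, 1.65 and 2.21 FPKM in set I and 2.63, 2.15, 2.94 and 2.29 FPKM in set II. Haloperidol gave 6.65, 4.55, 5.495 and 7.83 FPKM, 2.79-fold above saline (1.15 log2 units, SE 0.13, limma adjusted p = 2.40e-06), and methamphetamine gave 3.89, 4.13, 3.70 and 4.49 FPKM (1.85-fold, 0.67 log2 units, adjusted p = 0.0146). Neither group overlapped saline or the other. Both held against set I saline (1.29 and 0.81 log2 units, adjusted p of 3.76e-06 and 0.0068) and both were lost under 75th percentile scaling with all saline libraries (0.65 and 0.24, adjusted p of 0.0569 and 0.329), though not with that scaling and own-set saline. The methamphetamine call was lost without any 1 of its replicates 1, 2 and 4 (adjusted p up to 0.0867). Risperidone, at 1.83 to 3.41 FPKM, and the sample set II drugs, at 1.42 to 2.51 FPKM, overlapped saline. Mianserin lay below all set II saline libraries but was not called against them (-0.34 log2 units, adjusted p = 0.521). In the PFCx no drug was called, and haloperidol gave 2.204, 1.82, 1.85 and 2.67 FPKM beside 0.923 to 1.91 FPKM in saline (0.30 log2 units, adjusted p = 0.255). Of 13 other genes of activin signalling, the inhibin alpha gene Inha was the only one called, and it fell after mianserin in the NAc (4.09 to 4.65 FPKM beside 5.16 to 6.72 FPKM in saline, -0.31 log2 units, adjusted p = 0.0255, but 0.178 against own-set saline). None of the receptor, follistatin and Smad genes of that list passed in either tissue against all saline, with Fstl3 after methamphetamine in the NAc nearest (-0.47 log2 units, adjusted p = 0.0533). Over the list, 17 of 78 pairs of a gene and a drug in the NAc and 15 of 78 in the PFCx had an unadjusted p under 0.05. Against own-set saline, 1 gene of the list was called higher after risperidone in the PFCx, where 0.162% of all genes were called.

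Nptx2 (ENSMUSG00000059991, chromosome 5, 144545902 to 144557478) was higher after haloperidol in the NAc, at 6.71, 6.09, 4.08 and 6.69 FPKM. Saline measured 3.38, 4.07, 4.18 and 3.67 FPKM in set I and 2.62, 2.27, 2.26 and 3.17 FPKM in set II. Replicate 3 of haloperidol lay inside the saline range and the other 3 lay above it (1.84-fold, 0.71 log2 units, SE 0.13, limma adjusted p = 0.00464). All set II saline libraries were below all set I saline libraries, and against set I the call was lost (0.50 log2 units, adjusted p = 0.175). In the PFCx haloperidol gave 9.10, 9.34, 7.45 and 10.3 FPKM beside 6.19 to 7.98 FPKM in saline (0.30 log2 units, adjusted p = 0.151). Of 11 genes for related pentraxins, AMPA receptor subunits and partners of Arc and Npas4, Nptx1 rose after mianserin in the PFCx (26.2 to 35.1 FPKM beside 19.1 to 24.4 FPKM, 0.47 log2 units, adjusted p = 0.0151, but 0.062 against own-set saline) and no other gene of the list was called in either tissue.

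Vgf (ENSMUSG00000037428, chromosome 5, 137026392 to 137033351) and Scg2 (ENSMUSG00000050711, chromosome 1, 79434669 to 79440120) were abundant and moved by small amounts. In the NAc, Vgf saline libraries measured 27.2, 26.8, 32.2 and 29.8 FPKM in set I and 21.7, 21.0, 19.5 and 21.2 FPKM in set II, with no overlap between the sets. Haloperidol gave 30.1, 37.6, 39.0 and 39.2 FPKM, of which replicate 1 lay inside the set I range (0.54 log2 units, limma adjusted p = 0.0174), and venlafaxine gave 19.6, 16.9, 14.5 and 19.5 FPKM (-0.47 log2 units, adjusted p = 0.0414). With 75th percentile scaling and all saline libraries both calls were lost, at 0.03 log2 units for haloperidol (limma adjusted p = 0.866) and 0.08 for venlafaxine (adjusted p = 0.580). Both calls were lost against the saline of the own set (adjusted p of 0.392 and 0.812). The haloperidol call was also lost without haloperidol replicate 2, 3 or 4 (adjusted p up to 0.0773) and the venlafaxine call in 8 of the 12 fits that left out 1 library of either group (adjusted p up to 0.197). In the PFCx, Vgf was called for no drug (17.6 to 36.1 FPKM over all libraries).

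Scg2 in the NAc measured 62.1, 64.2, 66.0 and 64.5 FPKM in set I saline and 54.5, 55.0, 60.7 and 60.8 FPKM in set II saline. Haloperidol gave 72.6, 77.1, 75.7 and 82.0 FPKM, all above saline (1.26-fold, 0.33 log2 units, SE 0.05, limma adjusted p = 0.00101), and the difference held against set I saline (0.26 log2 units, adjusted p = 0.0357) but was -0.20 log2 units (adjusted p = 0.303) when libraries were scaled to their 75th percentile and all 8 saline libraries were used, a scaling under which the median of all genes was -0.18. The haloperidol call held under that scaling with own-set saline. Methamphetamine gave 70.5, 69.9, 73.0 and 70.6 FPKM, above every saline library by a smaller step (0.22 log2 units, adjusted p = 0.0984). In the PFCx Scg2 lay between 20.4 and 33.1 FPKM and was called for no drug. Of 10 other granin and prohormone processing genes, 3 rose in the NAc and none was called in the PFCx. Pcsk1, the prohormone convertase that cuts such precursors, rose after methamphetamine (3.42 to 4.9995 FPKM beside 1.98 to 3.01 FPKM in saline, 0.65 log2 units, adjusted p = 0.00188), haloperidol (0.51, adjusted p = 0.0104) and ketamine (0.41, adjusted p = 0.0389). Chga, another granin, rose after haloperidol (0.40 log2 units, adjusted p = 0.0351) and Cadps2, a vesicle priming factor, after ketamine (0.45 log2 units, adjusted p = 0.0371). Of these 5 calls, that of Pcsk1 after methamphetamine held against own-set saline (adjusted p = 0.0149) and the others did not (adjusted p from 0.0504 to 0.517).

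**Figure D3:**
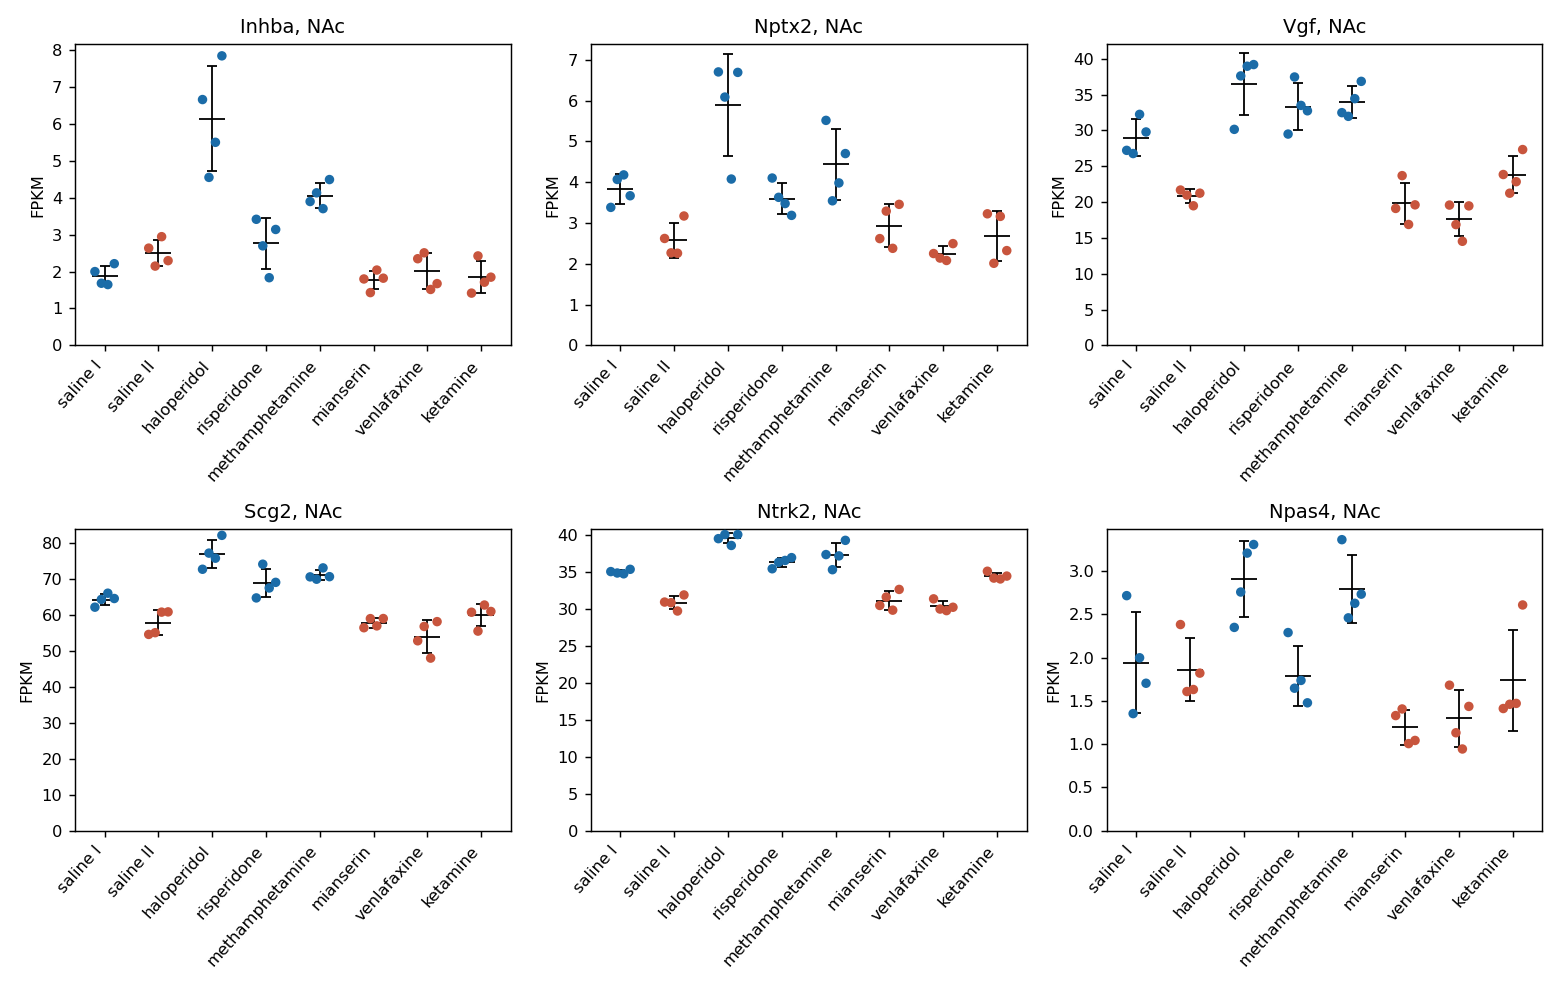
FPKM of Inhba, Nptx2, Vgf, Scg2, Ntrk2 and Npas4 in each NAc library by treatment, with points in blue for sample set I and red for sample set II and black bars for the mean ± SD (4 libraries a group). Haloperidol is the highest group by mean in all 6 panels, and in the Nptx2, Vgf, Scg2 and Ntrk2 panels saline set II lies below saline set I without overlap, while the Ntrk2 and Scg2 differences for haloperidol turn negative under 75th percentile scaling with all saline libraries.

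Bdnf (ENSMUSG00000048482, chromosome 2, 109674700 to 109727007) was low in the NAc, at 0.297 to 1.30 FPKM over the 32 libraries, and no drug was called there. In the PFCx, saline measured 4.19, 4.36, 3.91 and 4.38 FPKM in set I and 3.69, 3.70, 3.92 and 2.94 FPKM in set II. Haloperidol gave 5.51, 5.22, 4.71 and 5.004 FPKM (1.32-fold, 0.33 log2 units, SE 0.07, limma adjusted p = 0.0436) and methamphetamine gave 5.35, 5.54, 4.92 and 5.03 FPKM (1.34-fold, 0.35 log2 units, adjusted p = 0.0143). Both groups lay above all 8 saline libraries and overlapped each other. Both calls were lost against set I saline (0.23 and 0.25 log2 units, adjusted p of 0.555 and 0.305), the haloperidol call in 8 of the 12 fits without 1 library (adjusted p up to 0.201), and the methamphetamine call without methamphetamine replicate 1 or 2 (adjusted p up to 0.0935). Venlafaxine gave 3.13, 2.81, 3.19 and 2.41 FPKM, 2 libraries of which lay below the lowest saline library (-0.33 log2 units, adjusted p = 0.149). In the NAc of sample set II, the ratio of coverage to FPKM for Bdnf was 0.225 to 0.662 of its usual value beside 0.90 to 1.16 in sample set I, so Bdnf levels of the 2 sets are not on one footing there.

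The tables list 11 Bdnf transcripts, which differ mainly in their 5′ exon and join the same coding exon. In the PFCx, ENSMUST00000111050 made up 37.8% ± 9.52 of Bdnf FPKM (SD over 32 libraries), followed by ENSMUST00000053317 with 21.8% ± 6.30, ENSMUST00000111051 with 9.74% ± 5.88, ENSMUST00000111045 with 8.92% ± 3.96 and ENSMUST00000111046 with 6.46% ± 6.21. Most transcripts encode 249 codons, including ENSMUST00000111050, and ENSMUST00000053317 encodes 257. In the NAc, where the gene was low, the share of ENSMUST00000111050 alone ran from 0.0% to 92.4% among libraries, so shares there are poorly determined. The transcripts that start between 109674700 and 109675897 overlap exons of an annotated antisense gene, Gm45346, and since the sources used here do not say whether strand entered the estimates, reads of the antisense gene cannot be told from theirs.

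**Figure D4:**
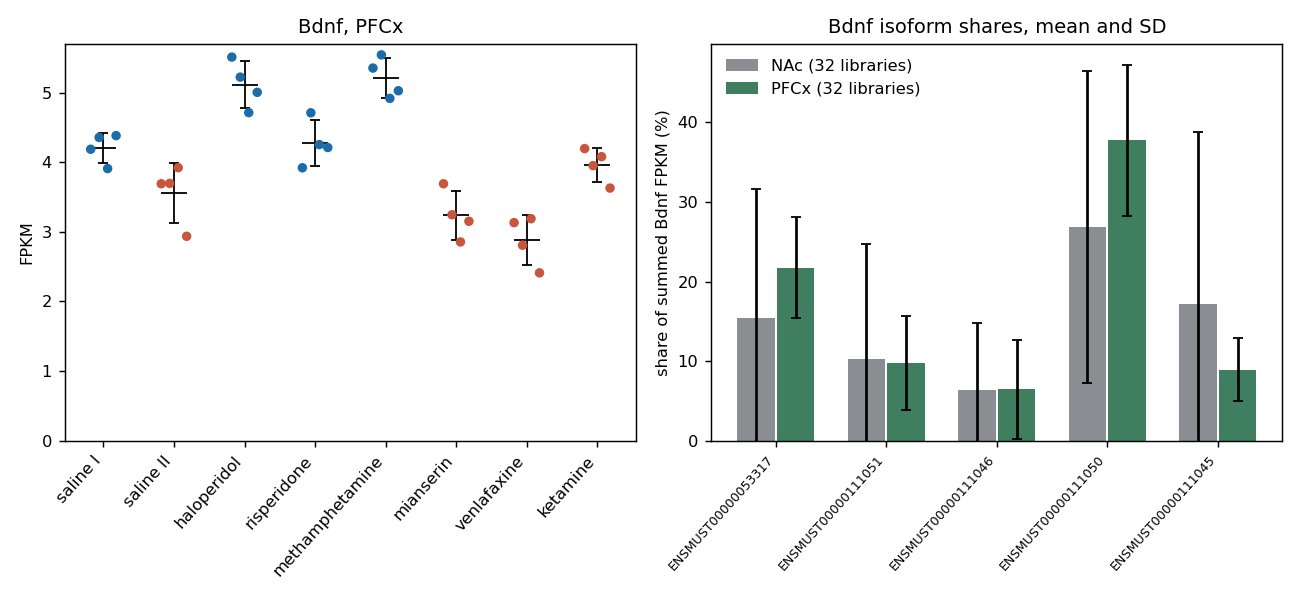
Left, Bdnf FPKM in each PFCx library by treatment, with points in blue for sample set I and red for sample set II and bars for the mean ± SD (4 libraries a group). Right, mean share of Bdnf FPKM of 5 transcripts with SD over the 32 libraries of each tissue: ENSMUST00000111050 has the highest mean share in both tissues, 37.8% in PFCx and 26.8% in NAc, and the NAc bars have wide SD.

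Ntrk2 (ENSMUSG00000055254, chromosome 13, 58806596 to 59133970) was abundant in both tissues. In the NAc, saline measured 35.1, 34.9, 34.8 and 35.4 FPKM in set I and 31.0, 30.9, 29.8 and 31.9 FPKM in set II. Haloperidol gave 39.6, 40.1, 38.6 and 40.1 FPKM, all above saline (1.201-fold, 0.26 log2 units, SE 0.04, limma adjusted p = 0.00116), and the difference was 0.17 log2 units against set I saline (adjusted p = 0.0193) but -0.26 (adjusted p = 0.176) under 75th percentile scaling with all saline libraries and 0.16 (adjusted p = 0.269) under that scaling with own-set saline. Ketamine, at 35.1, 34.2, 34.1 and 34.5 FPKM, lay inside the range of all saline libraries but above all of set II, and was called against that set (0.15 log2 units, adjusted p = 0.0158). In the same fit ketamine raised 2 of 4 oligodendrocyte and 1 of 4 astrocyte markers, where 0.967% of all genes were called. The median differences of these lists were 0.26 and 0.24 log2 units. The part of these markers in the Ntrk2 difference was not tested. In the PFCx, Ntrk2 measured 38.7 to 47.3 FPKM over all libraries and no drug was called. Of 18 other genes of neurotrophin signalling, among them the other neurotrophins, receptors and their adaptors, limma called none in either tissue, with 9 of 108 pairs of a gene and a drug at an unadjusted p under 0.05 in the NAc and 7 of 108 in the PFCx. The lowest adjusted p among them was 0.0673, for Ntf5 after venlafaxine in the NAc (0.12 log2 units, unadjusted p = 0.00248).

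Ntrk2 has 2 transcripts in the tables, ENSMUST00000079828 with 821 codons, the length of the full receptor with its kinase domain, and ENSMUST00000109838 with 476 codons, the truncated form. In saline the longer form made up 68.3% ± 1.18 of Ntrk2 FPKM in the PFCx (66.7% to 70.1%, SD, n = 8) and 56.2% ± 2.14 in the NAc (52.5% to 59.0%, n = 8). The tissues did not overlap, and the difference of 12.2 percentage points had an exact permutation p of 0.000155, the smallest that the 12870 splits can give. Within the sets the difference was 12.5 points in set I and 11.8 in set II (exact p = 0.0286 each, the smallest 4 against 4 can give). This tissue comparison was added after the shares had been seen. Shares of Bdnf and Ntrk2 isoforms were also compared between each drug and saline, in 90 comparisons of an isoform, a drug and a tissue, of which 78 were distinct because the 2 Ntrk2 shares sum to 100%. Drug and saline overlapped in all 90, and 4 of the distinct comparisons had an unadjusted p under 0.05 by the exact permutation test. None had an adjusted p under 0.05 (smallest 0.545), but 4 against 8 libraries allow no p below 0.00202, and 4 comparisons at that p would have been needed for any to pass, so a single shifted share could not have been called.

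**Figure D5:**
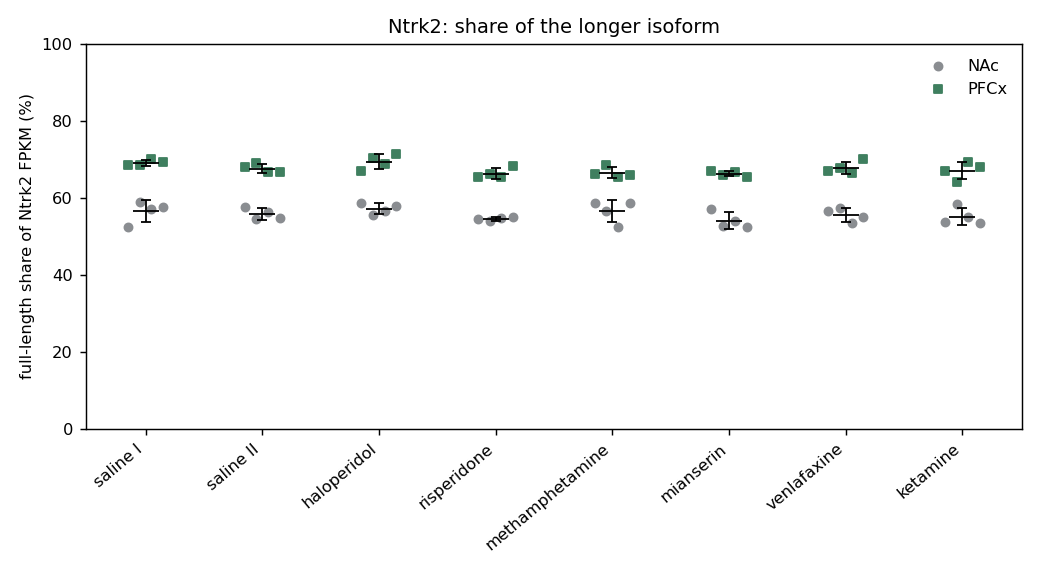
Share of the 821-codon transcript in Ntrk2 FPKM, in percent, for each library by treatment, with grey circles for NAc and green squares for PFCx and bars for the mean ± SD (4 libraries a group). The NAc libraries lie between 52.4% and 59.0% and the PFCx libraries between 63.96% and 71.4% in every treatment.

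Ptgs2 (ENSMUSG00000032487, chromosome 1, 150100031 to 150108227) was called for no drug. It measured 0.197 to 0.619 FPKM in NAc saline and 1.72 to 3.52 FPKM in PFCx saline. The largest NAc group mean was that of ketamine, 0.808 FPKM, which rests on replicate 3 at 1.61 FPKM beside 0.718, 0.435 and 0.468 FPKM in the other libraries (0.33 log2 units, limma adjusted p = 0.213). In the PFCx, methamphetamine gave 3.20, 2.82, 4.43 and 2.47 FPKM (0.35 log2 units, adjusted p = 0.354). As for Bdnf, the ratio of coverage to FPKM differed between the NAc sets, at 0.36 to 0.639 in sample set II and 0.909 to 1.08 in sample set I. Of 12 other prostaglandin genes, the prostaglandin D synthase Ptgds fell after venlafaxine in the NAc (7.87 to 9.23 FPKM beside 10.49 to 25.8 FPKM in saline, -0.82 log2 units, adjusted p = 0.0366), and the prostaglandin E receptor gene Ptger1 rose after haloperidol in the PFCx (2.53 to 3.03 FPKM beside 1.44 to 2.27 FPKM, 0.36 log2 units, adjusted p = 0.0342). Neither held against own-set saline (adjusted p of 0.745 and 0.470).

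Over the 6 drugs together, the limma F test at an adjusted p under 0.0001 called 5 of the 9 members in the NAc, Arc (1.50e-13), Inhba (1.04e-06), Vgf (1.40e-05), Scg2 (1.85e-05) and Ntrk2 (2.92e-05), where 0.815% of genes passed. Npas4 (0.000174) and Nptx2 (0.000166) missed that threshold. In the PFCx it called Arc (1.20e-07) and Bdnf (1.32e-05), where 0.13% of genes passed. Against own-set saline Vgf (0.1002), Scg2 (0.0653) and Ntrk2 (0.00151) lost the call in the NAc and Bdnf (0.0119) lost it in the PFCx. The drug effect differed between the tissues for Arc (adjusted p = 2.65e-07), Inhba (0.00231), Ntrk2 (0.00288) and Vgf (0.0167), in a test that 12.9% of all genes passed, and against the saline of the own set only the Arc difference remained called (6.45e-06). For single drugs, Arc after mianserin differed by 1.30 log2 units between the tissues (-0.35 in the NAc and 0.95 in the PFCx, adjusted p = 0.00013), and Inhba after haloperidol by -0.85 (1.15 and 0.30, adjusted p = 0.041). The Arc difference after haloperidol, -0.87 log2 units, did not pass (adjusted p = 0.0589).

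Without a drug, 6 of the 9 members differed between the tissues, where 45.7% of all genes did. Of those genes, 13749 were higher and 3183 lower in the PFCx, and the median over all genes was 0.10 log2 units. The contrast pooled the 2 saline sets of each tissue. Bdnf (1.54 log2 units, SE 0.08), Ptgs2 (1.23, SE 0.12), Nptx2 (0.97, SE 0.09) and Ntrk2 (0.34, SE 0.03) were higher in PFCx saline, with limma adjusted p of 2.49e-24, 3.14e-13, 1.54e-12 and 2.39e-12. Scg2 (-1.29, SE 0.06, adjusted p = 6.16e-26) and Inhba (-0.33, SE 0.10, adjusted p = 0.00805) were lower there. Arc, Npas4 and Vgf were not called (adjusted p of 0.344, 0.263 and 0.755). By mean saline FPKM, which is per length, the order in the NAc ran from Scg2 (61.0) through Ntrk2 (33.0), Vgf (24.9), Arc (6.45), Nptx2 (3.20), Inhba (2.19), Npas4 (1.90) and Bdnf (0.684) to Ptgs2 (0.407), and the ranges of the neighbours Ntrk2 and Vgf, Nptx2 and Inhba, Inhba and Npas4, and Bdnf and Ptgs2 overlapped.

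The wider activity-induced programme was read from 29 further genes, chosen with results of these data known. In the NAc 20 of them rose after haloperidol (median of the 29, 0.71 log2 units, with 0.721% of all genes called), 15 after methamphetamine (0.42, 0.194%) and 13 after risperidone (0.34, 0.729%). Mianserin raised 4 and lowered 1 (1.84% of all genes called), ketamine raised 3 (1.97%), and venlafaxine lowered 3 (1.83%). The leading ones were the transcription factor genes Fosb (6.07 to 7.02 FPKM after haloperidol beside 0.863 to 1.47 FPKM in saline, 1.85 log2 units, limma adjusted p = 4.66e-14), Fos (1.78, adjusted p = 2.35e-10), Nr4a1 (1.59, adjusted p = 1.84e-11) and Egr4 (1.45, adjusted p = 5.33e-11). In the PFCx none of the 29 was called against all saline for venlafaxine (0.0054% of all genes called) or ketamine (0.0162%). Methamphetamine raised 14 there (median 0.51, 0.351%), risperidone 10 (0.51%), mianserin 9 with 1 lower (0.667%), and haloperidol 8 (median 0.31, 0.162%). Those with the lowest p there were called for mianserin, namely the phosphatase genes Dusp5 (2.06 to 2.76 FPKM beside 0.689 to 0.978 FPKM, 0.88 log2 units, adjusted p = 5.86e-09), Dusp6 (0.79, adjusted p = 7.35e-08) and Dusp1 (1.10, adjusted p = 1.56e-06), and Nr4a1 (0.88, adjusted p = 1.37e-05). All 8 of these named calls held against own-set saline (adjusted p up to 0.000416). In the NAc 16 of the 20 genes called for haloperidol, 10 of 15 for methamphetamine, 10 of 13 for risperidone, 2 of 5 for mianserin, 1 of 3 for ketamine and 0 of 3 for venlafaxine were also called against own-set saline, and in the PFCx 12 of 14 for methamphetamine, 8 of 10 for risperidone, 9 of 10 for mianserin and 3 of 8 for haloperidol. Own-set saline called 3 of the 29 in all for mianserin and 3 for ketamine in the NAc. In the PFCx it called 1 higher for ketamine and 1 lower for venlafaxine. Of all genes, it called 0.0081% to 0.967% for a drug in the NAc and 0.0216% to 2.01% in the PFCx.

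As a description over the 14 group means of the series, centred within each tissue, the 14502 genes with a mean of at least 1 FPKM in both tissues were ranked by Pearson r with each member. Within a tissue the means share the value they were centred on, and drugs of one sample set share that set. The pattern of Arc was most like that of Ier5 (r = 0.968), Scg2 (0.957) and Gfod1 (0.957). Those nearest to Scg2 were Rundc1 (0.985), Arc (0.957) and Arf6 (0.952), and those nearest to Npas4 were Rnd3 (0.963), Ankib1 (0.955) and Arc (0.940). Inhba was nearest to Erdr1 (0.946), Agfg1 (0.911) and Aars2 (0.905), and Nptx2 to Aars2 (0.947), Ccdc124 (0.943) and Nefh (0.939). Vgf was nearest to Tcaf1 (0.972), Gm26917 (0.970) and Epn1 (0.968), and Ntrk2 to Crtac1 (0.972), Ywhag (0.962) and Ina (0.952). Bdnf was nearest to Pdgfa (0.938), Atp6v1g1 (0.921) and Gm10157 (0.901), and Ptgs2 to Mff (0.884), Trib1 (0.832) and RP23-449F12.8 (0.818).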

How the data were processed

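Ribosome-depleted total RNA of 64 libraries was sequenced on the Ion Torrent platform with single-end reads. The authors aligned the reads with TopHat2 2.0.1 and then Tmap to mm10 and estimated transcripts with Cufflinks 2.2.1, using Ensembl models. The authors deposited 1 Cufflinks table per library, which gives FPKM per transcript, normalised by length and library, and its coverage, a signal in reads per base. Coverage served only to gauge bases sequenced and as an alternative to FPKM. The authors tested log2(1 + x) by analysis of variance, and no columns of their tests were used. The members and gene lists were chosen with earlier results of these data known.

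Transcript FPKM were summed per gene, and genes with a mean of at least 0.1 FPKM in either tissue were kept (37034 of 46785). log2(FPKM + 1) was fitted with limma 3.58.1 in R 4.3.3, separately in each tissue with 7 groups of 32 libraries and no covariate, and with 14 groups for comparisons between tissues. p-values were adjusted by the Benjamini-Hochberg method over all genes tested, with a threshold of 0.05, and of 0.0001 for the F test, after the authors. Isoforms of Bdnf and Ntrk2 with a mean share of at least 5% in a tissue were compared by exact two-sided permutation of shares over 495 splits. On data simulated for haloperidol against saline, with 197 genes changed by 1 log2 unit among 38342, the fit recovered 74.11% in the NAc and 78.68% in the PFCx, with 11 false calls in each. The simulated libraries held independent noise and no difference between sample sets, so these false calls do not gauge the effect of such a difference. Named genes were all 9 members and, in each list and tissue, at most 4 genes with the lowest adjusted p over the drugs, plus the 3 genes of most similar pattern for each member. Other drugs for which a named gene passed were also given for Pcsk1, chosen after its values were seen. Sample sets were assigned from the number of transcripts above 0 in the NAc, and marker lists of 9 cell types served as checks. Of these, limma against all saline called 1 medium spiny neuron gene lower and 1 oligodendrocyte gene higher for 1 drug in the NAc and no other marker in either tissue. Against own-set saline, ketamine raised 2 of 4 oligodendrocyte and 1 of 4 astrocyte markers in the NAc (0.967% of all genes called). In the PFCx it lowered 1 of 5 cortical projection neuron markers (1.51% of all genes called). No pair of libraries held identical values (highest r 0.988). Data were read with Python 3.11.15, pandas 2.3.3 and numpy 2.4.6, and plotted with matplotlib 3.10.9. Alternatives to the pseudocount, filter, scaling, saline libraries and variance model were run.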

Additional observations from a re-analysis of the deposited data

Results flagged for a closer look

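Of 126 groups of a member, tissue and treatment, 4 held a library whose gap to the nearest other exceeded Dixon's 95% critical value, and chance flags about 1 in 20 groups. Arc in the PFCx of ketamine replicate 1 measured 15.3177 FPKM beside 8.80 to 9.86 FPKM in the other 3 libraries. Npas4 in the NAc of ketamine replicate 4 measured 2.6088 FPKM beside 1.41 to 1.47 FPKM. Npas4 in the PFCx of haloperidol replicate 3 was low at 2.5388 FPKM beside 3.04 to 3.13 FPKM, and Nptx2 in the PFCx of methamphetamine replicate 3 was low at 7.3059 FPKM beside 8.86 to 9.16 FPKM. PFCx ketamine replicate 1 was the highest of its group in 7 of the 9 members, all but Npas4 and Scg2.

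The limma F test of the drug effect between tissues passed for Arc (adjusted p = 2.654e-07), Ntrk2 (adjusted p = 0.002876), Inhba (adjusted p = 0.002306) and Vgf (adjusted p = 0.01671). For single drugs, the PFCx minus NAc difference was -0.8469 log2 units for Inhba after haloperidol and 1.2998 log2 units for Arc after mianserin. Against the saline of the own sample set, the test over drugs passed for Arc (adjusted p = 6.45e-06) and for no other member (lowest adjusted p of the others 0.205, for Inhba).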

How the results depend on the processing

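The 4 Arc calls in the PFCx and the Arc calls for haloperidol and methamphetamine in the NAc held under all 14 alternatives and without each library in turn. Member calls numbered 11 in the NAc and 6 in the PFCx in the reported fit. They were 17 in the NAc with set I saline only, 21 in the NAc and 12 in the PFCx with set II saline only, and 5 in the NAc with 75th percentile scaling and own-set saline, an alternative chosen after seeing the data, as was coverage in place of FPKM. In the NAc, set I saline only called 28% to 31.5% of all genes for sample set II drugs and 0.081% to 0.208% for sample set I drugs. Set II saline only called 22.7% to 28% there for sample set I drugs and 0.0027% to 0.972% for sample set II drugs. In the PFCx, set II saline only called 8.14% to 12.4% and 0.564% to 1.88%. Of the members, the F test called 5 in the NAc and 2 in the PFCx, where 0.815% and 0.13% of all genes passed. It called 3 in the NAc with 75th percentile scaling, 3 and 1 with a pseudocount of 0.1, 2 and 1 with own-set saline, with or without a replicate block within the set, and 1 and 1 with 75th percentile scaling and own-set saline. Shares over all genes are not given for the F test under these alternatives. Drug by tissue calls fell from 4 to 1 under each fit with own-set saline. Pathway calls (66 in the NAc, 44 in the PFCx) were 147 in the NAc with 75th percentile scaling and 41 with own-set saline added, 100 with set I saline only, and 121 in the NAc and 67 in the PFCx with set II only. In the NAc, 75th percentile scaling called 22.4% to 33.9% of all genes for sample set II drugs and at most 0.0328% for sample set I drugs. With own-set saline added, it called 0.0328% to 1.31% over the drugs.

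With 75th percentile scaling and all saline, under which the median of all genes moved to between -0.18 and -0.17 for sample set I drugs and between 0.18 and 0.21 for sample set II drugs, these NAc differences changed sign: Ntrk2 and Scg2 after haloperidol (-0.26 and -0.20), Ntrk2 and Scg2 after mianserin (0.44 and 0.45), Ntrk2 and Vgf after venlafaxine (0.45 and 0.0816), and Arc, Vgf and Scg2 after ketamine (0.41, 0.41 and 0.45). The cause was not tested. Under that scaling Arc, Bdnf, Ntrk2, Ptgs2, Vgf and Scg2 were called higher for ketamine in the NAc. Ntrk2 and Scg2 were called higher for mianserin and Ntrk2 for venlafaxine (limma adjusted p from 0.00665 to 0.0452 over these calls). Of the NAc member calls in the reported fit, only those of Arc for haloperidol and methamphetamine remained. Without 1 library at a time, calls ranged from 9 to 14 and 4 to 6 (members), 4 to 6 and 2 to 2 (F test) and 59 to 69 and 36 to 48 (pathways) in the NAc and PFCx, from 4 to 5 (drug by tissue), 6 to 6 (tissue) and 0 to 0 (isoform shares). Shares over all genes are not given for these fits.

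Same-numbered libraries were treated as paired only if every pair correlated above 0.1, which was not met in the NAc or PFCx (mean correlation of deviations 0.0537 and 0.064, lowest -0.248 and -0.253, with 23 of 32 libraries in each correlating best with their own number). Within sample set I the mean was 0.144 and 0.221 (lowest 0.0653 and 0.0216), beside -0.0478 and -0.0699 for other numbers, and 15 of 16 libraries in each tissue correlated best with their own number, a hint of shared variation by number. Within sample set II the mean was 0.0734 and 0.108, with 11 and 8 of 16. With the replicate number as a block, member calls were 11 and 7, where 0.2% to 1.98% and 0% to 0.726% of all genes were called for a drug. F calls were then 5 and 2, pathway calls 64 and 51, drug by tissue calls 5, tissue calls 6 and isoform share calls 0. Without counts, the counting error of low genes such as NAc Bdnf and Ptgs2 cannot be given.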
